A study of Mus musculus with 12 samples.

Results

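The CCN family of secreted matricellular proteins was examined in mouse auditory cortex, together with Amotl2, a gene of the Hippo pathway that is often induced along with Cyr61 and Ctgf. The members were the 6 genes Cyr61, Ctgf, Nov, Wisp1, Wisp2 and Amotl2, and each matched 1 of the 20989 loci in the expression table. They were chosen by name, with earlier results of these data known. The current symbols of the CCN genes in RefSeq are Ccn1 for Cyr61, Ccn2 for Ctgf, Ccn3 for Nov, Ccn4 for Wisp1 and Ccn5 for Wisp2. The remaining family gene, Wisp3, is no member and had between 0 and 2 reads in every library.

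The libraries came from C57bl6/J mice aged 4 weeks. Acute coronal brain slices were cut at the midline, and after 45 min of rest in artificial cerebrospinal fluid (aCSF) the hemispheres of a slice went to different baths for 1 h. The control hemisphere stayed in aCSF, and the cocktail hemisphere received aCSF with 50 µM (-)-bicuculline methiodide, 100 µM DL-norepinephrine, 50 µM carbamoylcholine, 100 µM dopamine, 40 µM ascorbic acid and 100 µM serotonin, a mixture that blocks GABA-A receptors and stimulates neuromodulator receptors in order to raise neuronal activity. Auditory cortex was then dissected, and poly-A RNA was sequenced from the control and the cocktail hemisphere of 6 mice, giving 6 libraries in each group. Both groups share the slicing and the time in the bath, no hemisphere was taken without slicing, and the drugs were not given singly. The study's methods add a rest of 1 h in aCSF after the bath, which the sample labels do not mention, and which side of the brain received the drugs is not stated.

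CCN proteins are released into the extracellular matrix, where they bind integrins, heparan sulphate proteoglycans and LDL receptor-related proteins and change how cells respond to growth factors. Cyr61 and Ctgf are immediate early genes in many cell types and are the most widely used target genes of the co-activators YAP and TAZ, which bind DNA through TEAD factors and are held back by the kinases of the Hippo pathway. In the brain Cyr61 has been studied as a neuronal activity-regulated gene, Ctgf marks deep layer neurons in cortex, and Nov is made by subsets of cortical neurons.

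The regulatory sequence of Cyr61 is shown because it holds letters that TEAD factors and the activity-regulated factor CREB can bind, and that of Amotl2 because it shares the first of these. The 250 bases before the annotated start of Cyr61 lie at chr3:145649986-145650235 on the minus strand of GRCm38.p6 (the assembly also called mm10) and overlap no annotated exon. They are printed from RefSeq, 5′ to 3′, with capitals marking the TEAD motif CATTCC, the core of the cAMP response element (TGACG, here on the other strand as CGTCA) and the TATA motif TATAAA.
Cyr61: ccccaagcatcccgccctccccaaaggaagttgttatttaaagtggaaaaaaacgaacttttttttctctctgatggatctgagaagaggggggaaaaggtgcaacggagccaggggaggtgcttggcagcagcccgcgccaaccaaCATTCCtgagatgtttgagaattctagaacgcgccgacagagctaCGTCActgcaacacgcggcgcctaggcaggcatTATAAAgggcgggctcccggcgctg
The TEAD motif begins 103 bases before the start, the cAMP response element core 58 bases before it and the TATA motif 25 bases before it.

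A match to the TEAD motif was also present before the start of Amotl2, beginning 65 bases upstream, in a window of 250 bases that, unlike that of Cyr61, overlaps an annotated exon of Amotl2 in GENCODE M21. The windows of 30 bases around the motif in both genes, at chr3:145650071-145650100 on the minus strand and at chr9:102717727-102717756 on the plus strand of GRCm38.p6, are given with the motif in capitals.
Cyr61 window: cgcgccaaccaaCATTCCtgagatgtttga
Amotl2 window: ctgaaactctcaCATTCCtggcatagcagc
On either strand, CATTCC was present in 12.6% of the 32851 promoter windows of 250 bases in the same table, TGACG in 17.8% and TATAAA in 12.4%. The AP-1 motif TGANTCA, present in 6.75% of windows, and the serum response factor motif CArG, present in 1.47%, had no match in the window of either gene. These matches are descriptions of letters, and binding was not measured. The window of Cyr61 held 15 CpG, with 74.6% of all windows at or below this number, and that of Amotl2 held 21, against a median of 6 over all windows. Their GC contents were 54.8% and 70.4%, against a median of 52.4%. The table matched 2 of the 6 members.

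Library depth, taken as reads recovered from the confidence intervals in the files, ranged from 10600193 to 19768184 in the control and from 13539422 to 17506709 in the cocktail group. Expression is given as FPKM, the number of fragments scaled to transcript length and library depth, so levels can be compared between genes. Of the 12032 loci with a mean of at least 1 FPKM, 180 (1.5%) differed between the groups at an adjusted p under 0.05 in the limma fit with the mouse as a block, of which 147 (1.22%) were higher and 33 lower in the cocktail group. The median log2 fold change over all loci tested was 0.0076. In bulk tissue, fewer cells of a type and less RNA per cell cannot be told apart.

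Of the CCN genes, 2 rose in the cocktail hemisphere, Cyr61 by 1.88-fold and Ctgf by 1.39-fold. Nov and Wisp1 did not pass the test, Wisp2 was close to undetected, and Amotl2 was 1.24-fold higher without passing the adjusted threshold. Called genes were thus 2 of the 6 members, against 1.5% of all loci tested. Because the members were chosen with earlier results of these data known, this share is no independent result. The members' levels kept the same order in all 12 libraries, with Cyr61 highest, then Nov, Ctgf, Amotl2, Wisp1 and Wisp2. The plot of levels by mouse shows the paired values of each gene.

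**Figure D1:**
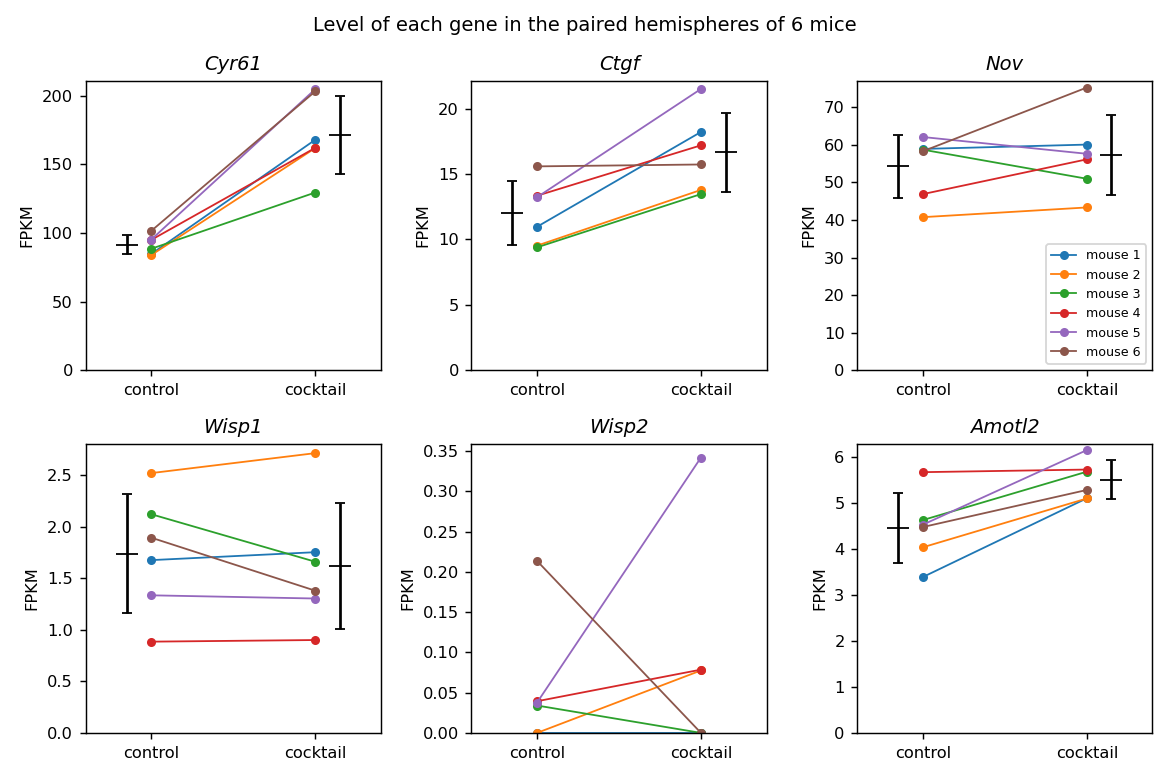
FPKM (y axis, from 0 in each panel) of the 6 genes in the control and the cocktail hemisphere, with 1 coloured line per mouse and, except for Wisp2, a black bar for the mean and SD of each group. The 6 cocktail values of Cyr61 sit between 129 and 205 FPKM, all above the control values of 83.8 to 101 FPKM, whereas the groups overlap in every other panel.

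Cyr61 (chromosome 3, 145646971 to 145649985, mm10) encodes the secreted, integrin-binding founder of the family. Its control level was lowest at 83.8 FPKM, with a median of 91.7 and a highest value of 101 FPKM, from 2436 to 3904 reads per library. In the cocktail group the lowest value was 129, the median 165 and the highest 205 FPKM, from 4553 to 8210 reads. The lowest cocktail hemisphere, that of mouse 3, was above the highest control hemisphere, so the groups did not overlap, as in 0.715% of the loci tested. 

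The mean of Cyr61 was 91.4 ± 6.91 FPKM (SD, n = 6) in control and 171 ± 28.5 FPKM (SD, n = 6) in cocktail. The fitted log2 fold change was 0.89 (SE 0.066, 95% interval 0.74 to 1.03), with an adjusted p of 1.75e-05 in limma, which ranked it 13 among all loci tested. The ratio of the FPKM values within a mouse was smallest in mouse 3, at 1.46, and largest in mouse 5, at 2.15. All 6 mice thus moved in the same direction, and flipping the signs of the within-mouse differences in an exact, two-sided permutation test gave p = 0.03125, the smallest value 6 pairs allow.

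Cyr61 was also an abundant transcript without the drugs, since its mean level over the 6 control libraries was above that of 97.0% of the loci in the table. It made up 54.2 to 61.4% of the summed FPKM of the 5 CCN genes in control libraries and 66.2 to 73.0% in cocktail libraries. The share held by Nov was 29.8 to 37.7% and 19.5 to 26.1%, respectively. The spread of Cyr61 between mice, as a coefficient of variation, was 7.56% in control and 16.6% in cocktail, where read counting alone would give 1.80% and 1.29%, so depth did not limit the comparison.

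Ctgf (chromosome 10, 24595442 to 24598682, mm10) encodes connective tissue growth factor, a profibrotic matrix protein and the other classical YAP/TAZ target of the family. Control levels ran from 9.39 to 15.6 FPKM with a median of 12.1, and cocktail levels from 13.5 to 21.5 FPKM with a median of 16.5. The groups overlapped through the control hemisphere of mouse 6, at 15.6 FPKM, which was above the cocktail hemispheres of mice 2 and 3, at 13.8 and 13.5 FPKM. Within each mouse, however, the cocktail hemisphere was the higher one, as in 3.64% of the loci tested.

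The mean of Ctgf was 12.001 ± 2.45 FPKM (SD, n = 6) in control and 16.6 ± 3.02 FPKM (SD, n = 6) in cocktail. The fitted log2 fold change was 0.44 (SE 0.079, 95% interval 0.27 to 0.62), with an adjusted p of 0.0132 in limma and a sign-flip p of 0.03125 in the exact permutation test. The mice were uneven, with within-mouse differences of 0.34 to 0.68 on the log2(FPKM + 1) scale in mice 1 to 5. In mouse 6 the difference was 0.013, where 15.6 FPKM in control faced 15.7 FPKM in cocktail. The counting error of the log2 ratio in mouse 6, taken without a pseudocount, was 0.092, so its direction is uncertain. The call was lost without the mouse block (adjusted p = 0.184), with no filter on low values (adjusted p = 0.0749), and without mouse 2 (0.0654), mouse 3 (0.0624) or mouse 5 (0.0511), all in limma.

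An antisense gene, Gm15270, overlaps Ctgf on the other strand and shares 665 exon bases with it. The paper describes a directional library with strand-specific reads, and FPKM values limited to fragments that fit genes with a protein-coding transcript. The strand setting used for the FPKM values themselves is not given in the sources used here. Any reads of Gm15270 in the value of Ctgf therefore cannot be told apart from its own.

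Nov (chromosome 15, 54745928 to 54753761, mm10) encodes a CCN protein that restrains proliferation in several cell types and was, after Cyr61, the most abundant member. Its level was 40.8 to 62.1 FPKM in control, with a median of 58.5, and 43.3 to 75.3 FPKM in cocktail, with a median of 56.9. Mice 1, 2, 4 and 6 were higher in the cocktail hemisphere and mice 3 and 5 lower. The log2 fold change was 0.07 (SE 0.069, 95% interval -0.080 to 0.22; adjusted p = 0.881 in limma), an interval whose upper end lies below the lower end for Cyr61.

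Wisp1 (chromosome 15, 66891393 to 66923199, mm10) encodes a CCN protein known as a target of Wnt signalling. It was measured at 0.885 to 2.52 FPKM in control and 0.901 to 2.71 FPKM in cocktail, from 62 to 199 reads per library. Mouse 2 was the highest and mouse 4 the lowest in both groups, and 3 of 6 mice were higher in the cocktail hemisphere. The log2 fold change was -0.07 (SE 0.067, 95% interval -0.21 to 0.080; adjusted p = 0.885 in limma). The spread between mice was 33.3% of the mean in control and 38.0% in cocktail, where read counting alone would give 9.49% and 9.50%. Within a mouse, the counting error of the log2 ratio, taken without a pseudocount, was 0.15 to 0.26. The within-mouse differences had an SD of 0.15 on the log2(FPKM + 1) scale, which shrinks them at this level. These values are on unlike scales, so how far depth limited the comparison between hemispheres was not tested.

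Wisp2 (chromosome 2, 163820834 to 163833147, mm10) encodes the CCN protein that lacks the C-terminal domain of the others, and its coding sequence of 753 bases was the shortest among the CCN members. Control mice 1 to 6 had 0, 0, 1, 1, 1 and 4 reads and cocktail mice 1 to 6 had 0, 2, 0, 2, 10 and 0 reads, which makes 7 against 14 reads in all. The highest levels were 0.214 FPKM in control mouse 6 and 0.342 FPKM in cocktail mouse 5. Where no read was found, the limit set by 3 reads was 0.0811 and 0.0983 FPKM in control mice 1 and 2 and 0.0916, 0.108 and 0.0976 FPKM in cocktail mice 1, 3 and 6. Wisp2 was below the filter and was not tested, and a difference was not detectable at this depth.

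Amotl2 (chromosome 9, 102717804 to 102733417, mm10) encodes a junctional scaffold protein that holds YAP outside the nucleus and is itself a YAP/TAZ target. Control levels were 3.38 to 5.66 FPKM with a median of 4.50, and cocktail levels 5.09 to 6.14 FPKM with a median of 5.47. Only the control hemisphere of mouse 4, at 5.66 FPKM, lay within the cocktail range, and in that mouse the cocktail hemisphere reached 5.72 FPKM. All 6 mice were higher in the cocktail hemisphere, as were 3.64% of the loci tested. In mouse 4 the difference was 0.012 on the log2(FPKM + 1) scale. The counting error of the log2 ratio there, taken without a pseudocount, was 0.10, so the direction in this mouse is uncertain.

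The mean of Amotl2 was 4.45 ± 0.750 FPKM (SD, n = 6) in control and 5.50 ± 0.417 FPKM (SD, n = 6) in cocktail. The log2 fold change was 0.26 (SE 0.065, 95% interval 0.12 to 0.40), and its adjusted p of 0.0903 in limma did not pass the threshold. The exact sign-flip permutation test on this single gene gave p = 0.03125, which is not adjusted over loci.

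The response of Cyr61 was set against that of each other member tested, as the difference of the within-mouse differences on the log2(FPKM + 1) scale. In all 4 comparisons the response of Cyr61 was the larger one in 6 of 6 mice. The gap was 0.44 ± 0.30 (SD, n = 6) to Ctgf, 0.82 ± 0.25 to Nov, 0.95 ± 0.21 to Wisp1 and 0.62 ± 0.19 to Amotl2. Each gave p = 0.03125 in the exact two-sided sign-flip permutation test, the smallest value 6 pairs allow. With all 4 at this value, adjustment over the 4 comparisons could not change them. Because the members were chosen with earlier results of these data known, these comparisons are no independent result. The smallest gap to Ctgf was 0.067, in mouse 3, and the largest 0.98, in mouse 6. The scale shrinks differences of low genes such as Wisp1, and with a pseudocount of 0.1 in place of 1 the gaps were 0.42 to Ctgf, 0.82 to Nov, 1.00 to Wisp1 and 0.58 to Amotl2. The plot of within-mouse differences shows the values behind these comparisons.

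**Figure D2:**
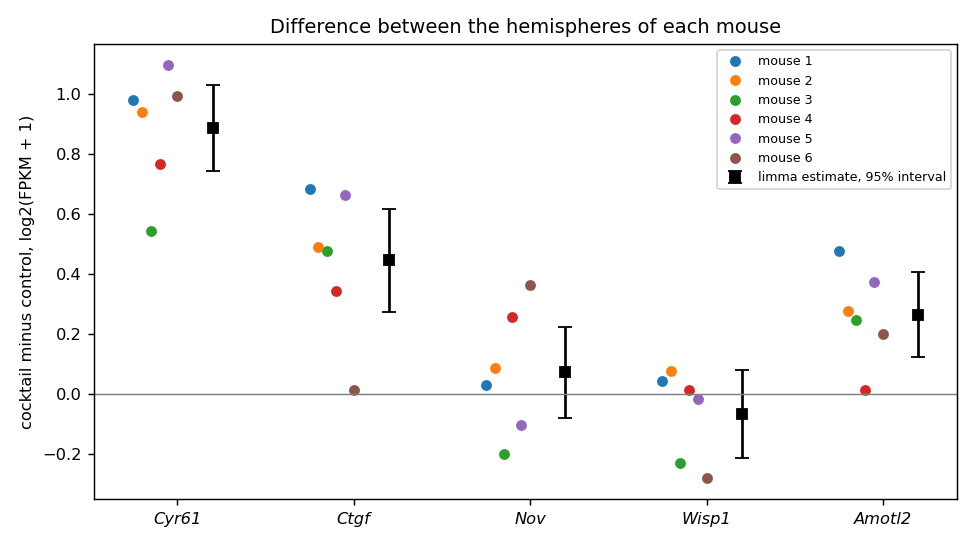
Cocktail minus control in each mouse on the log2(FPKM + 1) scale (y axis) for the 5 genes tested, with 1 coloured point per mouse and a black square with its 95% interval for the limma estimate. Every point of Cyr61 lies at 0.54 or above, the point of mouse 6 for Ctgf and that of mouse 4 for Amotl2 lie near 0, and the points of Nov and Wisp1 lie on both sides of 0.

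Transcript structure, which the choice of members did not use, differed between the genes, and its relation to the response was not tested. All 5 CCN genes have 5 exons and Amotl2 has 10, against a median of 9 over the 11867 loci matched to GENCODE M21. The genes of Cyr61 and Ctgf span 3006 and 3237 bases and are longer than only 5.39% and 6.23% of these loci. Wisp1, by contrast, spans 31882 bases, Amotl2 15751, Wisp2 12258 and Nov 8338, against a median of 23222. The pentamer ATTTA, the core of AU-rich elements found in many short-lived mRNAs, occurs 5 times in the 690 bases of the 3′ UTR of Cyr61, a density of 7.25 per kb that is above that of 97.4% of the loci. Nov followed with 3.91 per kb, Ctgf had 1.87, Wisp1 1.07, Amotl2 0.584 and Wisp2 none, against a median of 1.24. Nov, which did not pass the test, thus had a higher density than Ctgf, which rose.

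The other genes of the pathways around the CCN proteins were counted in lists. Of 83 pathway genes, 72 had a mean of at least 1 FPKM, and 2 of these were called, Thbs1 and Actb, against 1.5% of all loci tested. The core genes of the Hippo pathway comprise the kinases Lats1, Lats2, Stk3 and Stk4, the co-activators Yap1 and Wwtr1, and the TEAD factors. Of 22 listed, 18 were tested and 0 were called in limma or in voom on the recovered reads. An unadjusted limma p under 0.05 was found for 2, against 8.05% of all loci tested (968). Their median log2 fold change was 0.02 over the 18 tested, against 0.0076 for all loci tested. The member of this list with the smallest p was Frmd6, a FERM-domain protein of the upstream pathway, at 15.9 ± 2.33 FPKM (SD, n = 6) in control and 20.8 ± 3.92 FPKM in cocktail (log2 fold change 0.36, SE 0.11; adjusted p = 0.223 in limma), with 4 of 6 mice higher.

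Further YAP/TAZ target genes, which include Axl, Crim1 and Asap1, were counted next. Of 19 listed, 15 were tested, 0 were called in limma or voom, 4 were higher at an unadjusted p under 0.05 (8.05% of all loci tested had such a p in either direction), and the median log2 fold change was 0.05. Foxf2, a forkhead transcription factor of brain pericytes, had the smallest p, at 1.73 FPKM in control and 2.34 FPKM in cocktail (log2 fold change 0.31; adjusted p = 0.138 in limma; 5 of 6 mice higher). Of the 15 tested, 12 had a log2 fold change above 0, as did 54.4% of all loci tested. Ankrd1, another widely used YAP/TAZ target, stayed at or below 0.053 FPKM in every library and was not tested. Nuak2, also not tested, averaged 0.559 FPKM in control and 0.814 FPKM in cocktail, with 6 of 6 mice higher. All 6 mice were higher for 3.64% of the loci tested. Myof and Nt5e, the other genes not tested, were higher in 4 of 6 mice each.

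Cyr61 and Ctgf are also targets of serum response factor (SRF) and its actin-sensing partners, the MRTFs. Of 16 listed genes of this kind, 15 were tested, 1 was called higher and 0 lower in limma, and 0 were called in voom. Their median log2 fold change was 0.05. An unadjusted limma p under 0.05 was found for 5, all higher, against 8.05% of all loci tested in either direction. The called gene was Actb (chromosome 5, 142903116 to 142906724), cytoplasmic beta-actin, at 558 to 700 FPKM in control and 682 to 786 FPKM in cocktail. All 6 mice were higher in the cocktail hemisphere, as in 3.64% of the loci tested. The log2 fold change of Actb was 0.24 (SE 0.046, adjusted p = 0.0191 in limma), a call that was lost in 6 of 14 alternative settings. Srf itself was at 24.5 ± 1.02 FPKM in control and 27.8 ± 1.24 FPKM in cocktail (SD, n = 6 each). Its groups did not overlap, as in 0.715% of the loci tested, but the adjusted p was 0.148 in limma.

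Among receptors and co-receptors of CCN proteins, which include the integrins Itgav and Itgb1 and the proteoglycan Sdc4, 12 of 12 were tested and 0 were called in limma or voom. Their median log2 fold change was 0.06. An unadjusted limma p under 0.05 was found for 1, against 8.05% of all loci tested in either direction. Lrp1, an endocytic receptor that binds Ctgf, had the smallest p (log2 fold change -0.10, adjusted p = 0.577 in limma). Its level was 59.4 ± 3.73 FPKM in control and 55.4 ± 3.46 FPKM in cocktail (SD, n = 6 each). It was lower in the cocktail hemisphere of all 6 mice, and the share of all loci for which this held was not counted. The IGF-binding protein genes, whose products share a domain with the CCN proteins, had 6 of 7 tested, 0 called in limma or voom and 1 at an unadjusted p under 0.05, with a median log2 fold change of 0.03. Their smallest p was that of Igfbp3, with a log2 fold change of 0.13 (adjusted p = 0.523 in limma).

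Other matricellular genes had 9 of 10 tested and a median log2 fold change of 0.03, with 1 called. An unadjusted limma p under 0.05 was found for 3, against 8.05% of all loci tested in either direction. Of these, 2 were higher. Besides the called gene they were Sparc (log2 fold change 0.15, adjusted p = 0.523 in limma) and Spp1 (-0.20, adjusted p = 0.460). The called gene was Thbs1 (chromosome 2, 118111922 to 118127133), which encodes thrombospondin 1, an astrocyte-secreted matrix protein that promotes synapse formation. Its levels in control mice 1 to 6 were 2.66, 3.42, 2.34, 3.78, 5.69 and 4.15 FPKM, and in cocktail mice 1 to 6 they were 8.70, 7.05, 6.46, 11.2, 9.77 and 6.28 FPKM. Every cocktail value was above every control value, as in 0.715% of the loci tested. The mean of Thbs1 went from 3.67 ± 1.20 to 8.25 ± 1.99 FPKM (SD, n = 6 each). The log2 fold change of 1.00 (SE 0.11, 95% interval 0.75 to 1.24; adjusted p = 0.000398 in limma) stood beside 0.89 in Cyr61, and these genes were not tested against each other. The scale shrinks differences of lower genes, and with a pseudocount of 0.1 the values were 1.17 in Thbs1 and 0.89 in Cyr61. The thrombospondins Thbs2, Thbs3 and Thbs4 were not called. The plot of fitted differences by list shows all of these loci.

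**Figure D3:**
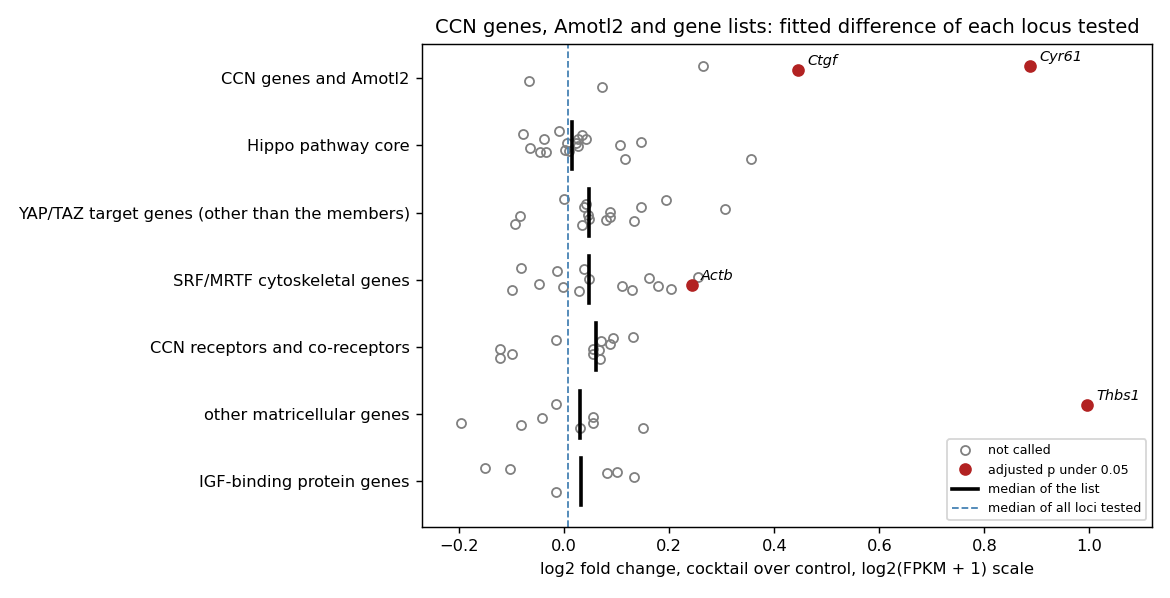
Fitted log2 fold change of cocktail over control (x axis) for every locus tested among the members and in the 6 pathway lists, with filled red points for loci at an adjusted p under 0.05, black bars for list medians and a dashed line at the median of all loci tested, 0.0076. Cyr61, Ctgf, Actb and Thbs1 are the filled points, and the list medians lie between 0.02 and 0.06.

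Markers of the cell types that the tissue could hold were counted in the same way. Of 56 marker genes in 10 lists, 49 were tested and 0 were called in limma or voom. An unadjusted limma p under 0.05 was found for 6 of the 49, all higher in cocktail. In either direction, 8.05% of all loci tested had such a p. Cortical excitatory markers such as Slc17a7 and Camk2a and inhibitory markers such as Gad1 and Sst were present in every library, with summed levels of 1304 to 1440.4 FPKM in control and 1238 to 1414 FPKM in cocktail for the former and of 480 to 540 and 511 to 557 FPKM for the latter. Layer 6b markers, the layer in which Ctgf is known to be made, summed to 25.9 to 30.2 FPKM in control and 25.0 to 33.2 FPKM in cocktail, with 4 of 4 tested, 0 called in limma or voom and 1 at an unadjusted p under 0.05.

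Markers of leptomeningeal fibroblasts, cells that can express CCN genes, summed to 12.008 to 18.7 FPKM in control and 15.2 to 20.3 FPKM in cocktail, with 4 of 6 tested and a median log2 fold change of 0.18. None was called in limma or voom, and 3 of the 4, Dcn, Col1a1 and Col1a2, were higher at an unadjusted p under 0.05. This threshold was passed by 8.05% of all loci tested, in either direction. Col1a1 and Col1a2 were higher in the cocktail hemisphere of all 6 mice, as were Cyr61, Ctgf, Amotl2 and 3.64% of the loci tested. Among inhibitory markers, Gad2 was also higher in all 6 mice. All 6 inhibitory and all 6 oligodendrocyte markers tested had a log2 fold change above 0, with medians of 0.075 and 0.12. The part of leptomeningeal fibroblasts in the result was not tested. Endothelial markers summed to 41.6 to 49.6 and 42.4 to 53.7 FPKM, and mural markers to 24.4 to 31.7 and 26.7 to 37.2 FPKM, with 6 of 6 and 4 of 6 tested and 0 called in limma or voom. The endothelial genes Cdh5 (log2 fold change 0.18; adjusted p = 0.197 in limma) and Pecam1 (0.11; adjusted p = 0.711) and the mural gene Abcc9 (0.14; adjusted p = 0.527) were higher in the cocktail hemisphere of all 6 mice, and for Cdh5 and Abcc9 the unadjusted p was under 0.05. Of the endothelial markers tested, 5 of 6 had a log2 fold change above 0, with a list median of 0.044. For the mural markers tested these values were 2 of 4 and 0.015. The part of vascular cells in the results for Cyr61, Ctgf and Amotl2 was not tested either. Astrocyte markers summed to 409 to 493 and 429 to 497 FPKM, microglial markers to 82.2 to 93.3 and 81.3 to 99.9 FPKM, and oligodendrocyte markers to 1998 to 2566 and 2301 to 2645 FPKM. The choroid plexus marker Ttr was listed at 0 in all cocktail libraries and reached 0.046 FPKM in control, whereas the list's sum of 58.0 to 73.6 and 67.3 to 74.3 FPKM came mostly from Enpp2, which oligodendrocytes also express.

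For each member tested, the loci with the most similar pattern were found by Pearson correlation of log2(FPKM + 1) over the 12 libraries, which come from 6 mice and share the treatment. Cyr61 was closest to Plk2 (r = 0.958), an activity-inducible kinase gene, and to the MAP kinase phosphatase genes Dusp1 (0.953) and Dusp5 (0.950). Because the groups of Cyr61 did not overlap, loci chosen in this way also separate the groups, and this is no independent result. Their means were 99.98 and 144 FPKM for Plk2, 122 and 208 FPKM for Dusp1 and 21.5 and 38.3 FPKM for Dusp5 in control and cocktail, respectively.

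Ctgf was closest to Pramef8 (r = 0.909), a gene of a large family of near copies whose reads are uncertain, to the imprinted gene Peg10 (0.896) and to the stress-inducible gene Gadd45g (0.891). Amotl2 was closest to Sox9 (0.897), a transcription factor of astrocytes, to the histone chaperone gene Nasp (0.897) and to the cofilin gene Cfl1 (0.896). Loci chosen for similarity to Ctgf or Amotl2 tend to share their difference between hemispheres, so this is no independent result. Sox9 was at 12.1 ± 1.96 FPKM in control and 15.2 ± 1.27 FPKM in cocktail (SD, n = 6 each; log2 fold change 0.32; adjusted p = 0.0235 in limma).

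The loci closest to Nov and Wisp1 were not called between groups, which choosing them by similarity to uncalled members favours. Differences between mice were not tested. For Nov they were Gfod2 (0.904), the plexin gene Plxnb1 (0.898) and the serotonin receptor gene Htr2c (0.884), with adjusted p values of 0.924 to 0.992 in limma. For Wisp1 they were the mitochondrial phosphatase gene Pdp1 (0.955), the glucocorticoid-induced gene Tsc22d3 (0.924) and Prmt10 (0.905). As for Wisp1, both hemispheres of mouse 2 were the highest and both of mouse 4 the lowest of their group for Pdp1 and Tsc22d3. Because these loci were chosen for their similarity to Wisp1 over the same libraries, a shared order of mice is no independent result. Tsc22d3 was at 45.4 and 47.4 FPKM in mouse 2 and at 25.2 and 23.8 FPKM in mouse 4, in control and cocktail. The plot of Wisp1 and these loci shows both hemispheres of each mouse.

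**Figure D4:**
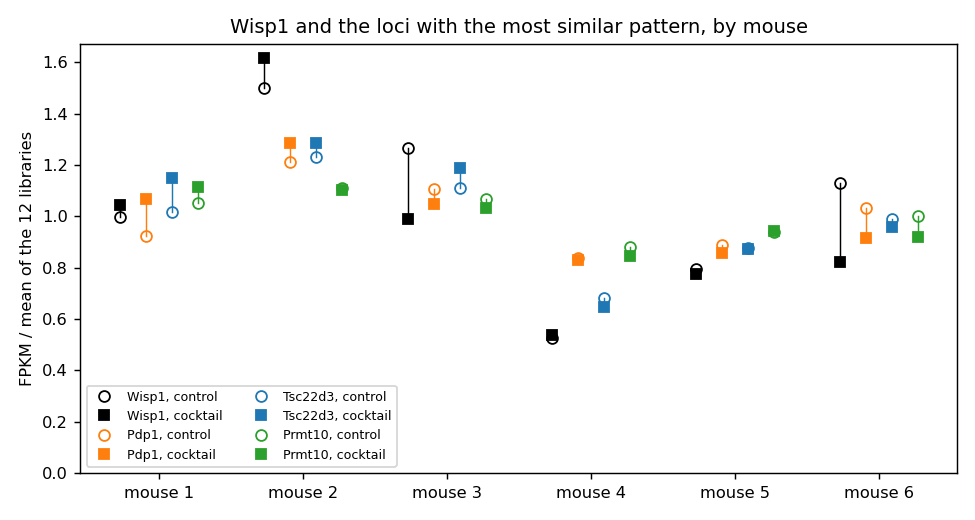
FPKM divided by the mean over the 12 libraries (y axis) for Wisp1, Pdp1, Tsc22d3 and Prmt10 in each of the 6 mice, with open circles for control, filled squares for cocktail and a line joining the hemispheres of a mouse. Wisp1, Pdp1 and Tsc22d3 are highest in mouse 2 and lowest in mouse 4 in both hemispheres. Pdp1, Tsc22d3 and Prmt10 were chosen for their similarity to Wisp1 over these libraries.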

How the data were processed

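The authors removed ribosomal reads with BWA 0.6.1, aligned the 50-base reads of a directional poly-A library to mm10 with TopHat 1.4.1, and estimated FPKM with Cufflinks 1.3.0, with bias correction and protein-coding fragments in the denominator. The FPKM values were used as deposited, and the number of reads behind each was recovered from its confidence interval (83.2% of 36158 values under 20 reads were whole to within 0.05). The authors' table of DESeq2 1.6.3 results on HTSeq 0.6.1p1 counts holds mean counts, fold changes and p-values per gene and was not used.

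Values were converted to log2(FPKM + 1), and loci averaging 1 FPKM or more entered a limma fit (limma 3.58.1, R 4.3.3) that modelled treatment and mouse, with a variance trend and Benjamini-Hochberg adjustment over 12032 loci at 0.05. Fold changes on this scale understate those of low genes. The fit was tested on simulated data. Single genes were tested by an exact two-sided sign-flip permutation over the 6 mice, which came from separate animals (Python 3.11.15, scipy 1.17.1). Mouse numbers in the labels pair the libraries, since hemispheres of a slice share an animal. Deviations from the group mean correlated at 0.216 to 0.406 within a mouse (6 pairs) and at -0.42 to 0.445 between mice (30 pairs), and no library was a copy of another.

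Named were every member, and the called genes of each pathway list or else its gene with the smallest p. Also named were any marker called and the 3 loci most like each member tested. Srf, Ankrd1, Nuak2, Myof, Nt5e, Sparc, Spp1, Dcn, Col1a1, Col1a2, Cdh5, Pecam1, Abcc9, Gad2, Ttr and Enpp2 were added after their values were seen. So were the genes given as examples of a list. The members and lists were chosen with earlier results of these data known. A marker gene of the design is not reported here and was left out of its list. Alternatives were a pseudocount of 0.1, no filter, a filter at 5 FPKM, no mouse block, voom on recovered reads, other scalings and leaving out each mouse. Coordinates follow the files and count from 1, transcript structure is from GENCODE M21, and promoters and symbols are from RefSeq on GRCm38.p6. Intervals and limits from reads cover counting error only.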

Additional observations from a re-analysis of the deposited data

Results flagged for a closer look

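In 2 of 18 groups of 6 values a hemisphere lay far from the others. Chance would give about 0.9, but this rate need not hold for groups with few reads and several values of 0. Both were Wisp2, at 0.214 FPKM in the control hemisphere of mouse 6, with the other 5 between 0 and 0.0393 FPKM, and at 0.342 FPKM in the cocktail hemisphere of mouse 5, with the others between 0 and 0.0786 FPKM. They rest on 4 and 10 reads, and the other hemisphere of the same mice had 0 reads in mouse 6 and 1 read in mouse 5.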

How the results depend on the processing

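The number of loci called fell from 180 to 88 without the replicate block and ranged from 104 (without mouse 4) to 181 when each mouse was left out; the other alternatives gave 121 to 177. The share of calls that were higher in cocktail was 81.7%, 87.5% without the block and 94.7% with a filter at 5 FPKM. Cyr61 kept its direction and its call in all 14 alternatives (0.85 to 0.96), and Nov (0.01 to 0.13), Wisp1 (-0.10 to -0.02) and Amotl2 (0.22 to 0.31; adjusted p 0.0639 to 0.372) kept their direction without a call, with no value for Wisp1 and Amotl2 at the 5 FPKM filter. Ctgf stayed at 0.44 but lost its call with no filter (adjusted p = 0.0749) and without the replicate block (adjusted p = 0.184), and ranged from 0.40 to 0.53 when mice were left out, losing it without mouse 2, 3 or 5; the cause was not tested. Among other genes, Actb lost its call in 6 of 14 alternatives and Thbs1 in 0. The SRF/MRTF list had 0 to 3 called loci, the Hippo and YAP/TAZ lists 0 to 1. With 5 mice the smallest exact sign-flip p is 0.0625, so no comparison of Cyr61 with another member could pass, and the gaps were 0.33 to 0.52 for Ctgf, 0.74 to 0.88 for Nov, 0.89 to 0.99 for Wisp1 and 0.59 to 0.69 for Amotl2. Depth limited Wisp2, with at most 10 reads in a library. For Wisp1, with 62 to 199 reads per library, how far depth limited the comparison was not tested. All adjusted p-values are from limma.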
